A study of Mus musculus with 12 samples.

Results

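The insulin-like growth factor (IGF) system was examined through 10 genes in the somatosensory cortex of neonatal mice. They were the ligands Igf1 and Igf2, the receptors Igf1r, Igf2r and Insr, the docking proteins Irs1 and Irs2, and the binding proteins Igfbp2, Igfbp4 and Igfbp5. The genes were taken by symbol from a list, and the rows of each symbol were summed, which joined 19 of the 35840 transcripts into 10 of the 24452 gene symbols in the files. All 10 genes passed the low-count filter that left 14739 genes to be tested.

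The samples were somatosensory cortex of male C57BL/6 mice on postnatal day 7, taken 8 hours after the second intraperitoneal injection of ethanol or saline. The study collected some cortex samples by laser dissection and the others by hole punch, and the labels do not say which. WT and p53 KO mice were offspring of matings between heterozygous carriers of the Trp53tm1Tyj allele, a disruption of the gene for p53 that every cell of the animal carries. Saline and ethanol mice of both genotypes gave 4 groups of 3 libraries each, which are called WT saline, WT ethanol, KO saline and KO ethanol. Libraries are numbered from 1 to 3 within a group as names without any pairing. The labels list the libraries as separate samples and do not name animals or litters, so each p-value measures only the spread between these samples.

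Total counts per library ran from 719735 in KO ethanol 1 to 17066392 in KO saline 2, and the medians of the groups lay between 9659724 and 11627871. WT saline 1 held 1953154 counts. This library and KO ethanol 1 were the 2 libraries whose names begin with L, while the other 10 begin with P. Within a group the Spearman correlation of libraries was between 0.812 and 0.989, and the lowest value joined WT saline 1 and WT saline 2. The factor that scales library composition (TMM) was lowest at 0.564 in WT saline 2 and highest at 1.23 in KO ethanol 2. The neuronal gene Snap25 was between 280.9 and 921.9 normalized CPM (counts scaled to the same library total) in all 12 libraries, while the neuronal gene Rbfox3 ran from 20.6 in WT saline 2 to 346.0 in WT saline 1, the lowest and the highest of all libraries. Trp53 itself had a mean of 14.8 ± 11.3 normalized CPM (SD, n = 3) in WT saline and 16.8 ± 9.35 (SD, n = 3) in KO saline, but counts over whole transcripts do not separate the deleted exons from those that remain, so they do not check the genotype.

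IGF1 and IGF2 are secreted proteins that promote the growth, survival and differentiation of neurons and glia. Both bind the IGF1 receptor, a tyrosine kinase closely related to the insulin receptor, and the active receptor phosphorylates the docking proteins IRS1 and IRS2, which recruit phosphoinositide 3-kinase and through it AKT. The IGF2 receptor has no kinase and carries IGF2 to lysosomes, and the IGF-binding proteins hold the ligands outside the cell and set how much reaches the receptors. In the developing brain IGF2 is known to come largely from meninges, choroid plexus and blood vessels, while IGF1 is made by neurons and other brain cells.

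Irs2 and Igf2r were the members with unadjusted p-values under 0.05 in 3 of the 5 contrasts tested, and the bases in front of their start sites are shown here together with those of Irs1, the closest relative of Irs2 among the members. The sequences are the 250 bases upstream of the RefSeq start site in the GRCm38.p6 build, all 3 on the minus strand, written 5′ to 3′. Capitals mark the E-box CACGTG, a palindrome that is read by basic helix-loop-helix factors.
Irs2, chr8:11008930-11009179: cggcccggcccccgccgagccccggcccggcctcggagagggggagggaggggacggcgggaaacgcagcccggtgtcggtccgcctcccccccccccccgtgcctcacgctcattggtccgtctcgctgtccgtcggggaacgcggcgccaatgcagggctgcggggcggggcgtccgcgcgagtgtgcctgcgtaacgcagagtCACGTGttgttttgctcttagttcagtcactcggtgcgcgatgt
Igf2r, chr17:12769707-12769956: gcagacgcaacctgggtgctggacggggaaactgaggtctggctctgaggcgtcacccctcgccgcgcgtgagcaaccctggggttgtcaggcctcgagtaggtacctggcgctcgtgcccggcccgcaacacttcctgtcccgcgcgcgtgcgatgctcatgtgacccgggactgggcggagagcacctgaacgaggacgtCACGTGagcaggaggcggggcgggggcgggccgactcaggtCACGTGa
Irs1, chr1:82291440-82291689: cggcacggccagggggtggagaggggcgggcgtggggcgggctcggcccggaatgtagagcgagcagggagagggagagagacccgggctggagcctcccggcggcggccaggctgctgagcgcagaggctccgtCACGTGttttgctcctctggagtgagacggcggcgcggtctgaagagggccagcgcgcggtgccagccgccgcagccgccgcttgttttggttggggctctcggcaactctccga
Irs2 held the motif 1 time, Igf2r 2 times and Irs1 1 time in this window. Windows were available for 9 of the 10 members, all but Insr, with 13 start sites in all. Of these 13 windows 4 held CACGTG, the last being the window before the upstream start site of Igfbp2. Among all 32851 windows of the same length, 6.02% held it on either strand. The GC box GGGCGG was found in 7 of the 13 member windows and in 32.7% of all windows, and the TATA box TATAAA in 1 of the 13, that of Igfbp4, and in 12.4% of all windows. The GC content of the windows of Irs2, Igf2r and Irs1 was 72.8%, 69.2% and 72.4%, with a median of 52.4% over all windows. The Irs2 start site lies at 11008929, upstream of the 5′ end of its transcript in the files at 11008431. A match of letters is a description of the sequence, and binding was not measured.

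Levels were compared between genes on the summed RPKM scale, which divides by transcript length. The binding proteins and Igf2 formed the upper part of the order and the receptors, Igf1 and the docking proteins the lower part. Igfbp2 had the highest median over the 12 libraries at 62.5 RPKM, followed by Igfbp4 at 32.5, Igfbp5 at 21.5 and Igf2 at 20.2. Insr was next at 4.57 RPKM, then Igf1 at 3.96, Igf1r at 3.09, Igf2r at 2.76, Irs1 at 2.53 and Irs2 at 1.76.

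Igfbp2 was above Igfbp4 in 12 of 12 libraries, Igfbp4 above Igfbp5 in 11, and Igf2 above Insr in 12. Igf1r was above Igf2r in 11 of 12 libraries. The other neighbours in the order did not differ beyond their spread over libraries, since Igfbp5 was above Igf2 in 7 libraries, Insr above Igf1 in 6, Igf1 above Igf1r in 7, Igf2r above Irs1 in 4 and Irs1 above Irs2 in 8. By group mean Irs2 was the lowest member in WT saline, at 0.620 ± 0.490 RPKM (SD, n = 3), and the sixth in WT ethanol, at 3.86 ± 3.36 (SD, n = 3). Its values in WT ethanol 1 to 3 were 7.74, 1.73 and 2.11 RPKM, so that mean leaned on WT ethanol 1. The deposited RPKM values had the same sorted values in each library (99.8% of 20504 ranks coincided within 0.1%), so they carry a rank normalization by the authors.

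**Figure D1:**
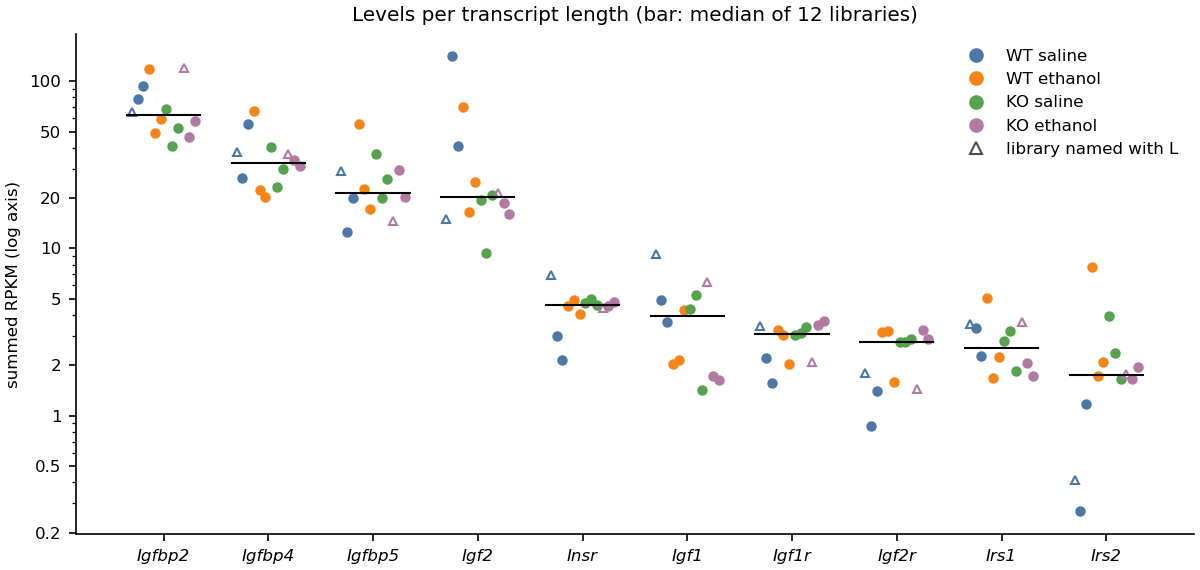
Summed RPKM of the 10 members in each library on a log axis, ordered by the median of 12 libraries (bar) and coloured by group. Igfbp2 lies highest with 40.7 to 120 RPKM and Irs2 is the most spread, from 0.267 to 7.74 RPKM.

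The first comparison asked how ethanol altered these genes in WT mice. Irs2 had the largest fold change among the members, with a mean of 2.06 ± 1.88 normalized CPM (SD, n = 3) in WT saline and 17.9 ± 15.8 (SD, n = 3) in WT ethanol. Igf2r followed, with 11.02 ± 4.50 and 28.7 ± 10.8 normalized CPM (SD, n = 3 each). In DESeq2 1 member (Irs2) passed an adjusted p under 0.05, beside 488 of 14669 genes. No member did in edgeR, where 0.0746% of all genes tested did. At an unadjusted p under 0.05, 2 of the 10 members passed, both with higher values after ethanol, beside 18.3% of all genes, which is near the members' share. In bulk tissue, fewer cells of a type and less RNA per cell cannot be told apart.

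Irs2, the docking protein that couples insulin and IGF receptors to phosphoinositide 3-kinase, is a single-transcript gene on the minus strand of chromosome 8 (mm10, 10986964 to 11008431 in the files). It had 1.03, 0.919 and 4.23 normalized CPM in WT saline 1 to 3 and 36.1, 8.08 and 9.45 in WT ethanol 1 to 3. All 3 ethanol libraries were above all 3 saline libraries, and WT ethanol 1 stood far above the other 2. The share of all genes whose groups separate in this way was not counted, here or in the comparisons below. Separation of 3 libraries from 3 cannot give an exact p below 0.1. The WT saline values rested on 2, 5 and 57 counts, whose exact 95% Poisson intervals, covering counting error only, were 0.242 to 7.22, 1.62 to 11.7 and 43.2 to 73.9 counts. The log2 fold change was 2.95 with a standard error (SE) of 0.71 and an unadjusted p of 0.00097, and the adjusted p in edgeR was 0.130. Without WT ethanol 1 the log2 fold change was 1.89 (SE 0.63, unadjusted p = 0.010), and without the 2 L libraries it was 2.63 with an adjusted p of 0.032. DESeq2 gave 2.99 with an adjusted p of 0.00374, and over all alternatives the adjusted p ran from 0.00374 to 0.503.

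Igf2r, the receptor that clears IGF2 and sorts lysosomal enzymes, is a single transcript on the minus strand of chromosome 17 (mm10, 12682406 to 12769707). It had 15.4, 6.43 and 11.2 normalized CPM in the WT saline libraries and 36.1, 33.7 and 16.2 in the WT ethanol libraries. The groups did not overlap, though WT ethanol 3 at 16.2 and WT saline 1 at 15.4 were close. The log2 fold change was 1.40 (SE 0.49, unadjusted p = 0.0126) with an adjusted p of 0.208 in edgeR, and without the 2 L libraries it was 1.61 with an adjusted p of 0.018. Over all alternatives its adjusted p ran from 0.018 to 0.564.

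Length moved with this comparison. Genes with higher values after ethanol at an unadjusted p under 0.05 had a median length of 4404 bases and those with lower values 1295 bases, while the transcripts of Igf2r and Irs2 measure 8887 and 6323 bases. With each library's trend with length removed, the log2 fold change was 0.51 for Igf2r (unadjusted p = 0.205) and 2.03 for Irs2 (unadjusted p = 0.0051, adjusted p = 0.267).

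The other receptors had smaller values. Igf1r, the main signalling receptor of the system (chromosome 7, mm10, 67952257 to 68233668), had 43.7, 23.1 and 17.0 normalized CPM in WT saline and 49.8, 42.7 and 27.3 in WT ethanol, which overlapped. Insr, the insulin receptor (chromosome 8, mm10, 3150922 to 3279618), had 74.6, 25.0 and 18.3 in WT saline and 51.6, 53.2 and 42.9 in WT ethanol. In both genes the library WT saline 1 was far above the other WT saline libraries. Their log2 fold changes were 0.54 (SE 0.44) and 0.35 (SE 0.44). Without WT saline 1 the value for Insr was 1.14 (SE 0.32, adjusted p = 0.048) and that for Igf1r 0.94 (SE 0.43, adjusted p = 0.149), and with the length trend removed both were below 0, at -0.43 and -0.36.

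Of the ligands, Igf1 had 64.3, 30.3 and 23.7 normalized CPM in WT saline and 22.4, 17.6 and 34.9 in WT ethanol, with a log2 fold change of -0.64 (SE 0.50). Igf2 had 28.8, 602.7 and 123.8 in WT saline and 205.7, 56.6 and 55.03 in WT ethanol, with a log2 fold change of -1.25 (SE 0.80). The Igf2 saline values span the whole ethanol range, and WT saline 2 alone held 3280 counts. Without WT saline 2 the log2 fold change of Igf2 was 0.40 (SE 0.66).

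Irs1, the other docking protein (chromosome 1, mm10, 82233105 to 82291440), had 34.4, 27.7 and 18.9 normalized CPM in WT saline and 55.7, 17.9 and 23.0 in WT ethanol, with a log2 fold change of 0.27 (SE 0.44).

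The binding proteins overlapped between the groups. Igfbp2, the binding protein with the highest level per transcript length (RPKM), had 80.2, 149.0 and 142.3 normalized CPM in WT saline and 115.1, 49.5 and 73.8 in WT ethanol, and Igfbp4, which restrains IGF action until it is cleaved (chromosome 11, mm10, 99041260 to 99052644), had 93.6, 81.0 and 171.1 against 124.1, 50.4 and 48.5. Igfbp5, a binding protein with high affinity for both ligands (chromosome 1, mm10, 72858065 to 72874866), had 200.0, 85.8 and 149.8 in WT saline and 296.7, 144.4 and 117.6 in WT ethanol. The log2 fold changes were -0.64 (SE 0.51), -0.63 (SE 0.43) and 0.36 (SE 0.43). The median over the 10 members was 0.31, beside 0.06 over all genes tested. With the length trend removed the members' median took the opposite sign, at -0.41 beside -0.17 over all genes, and without the 2 L libraries it was 0.48 beside 0.07.

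**Figure D2:**
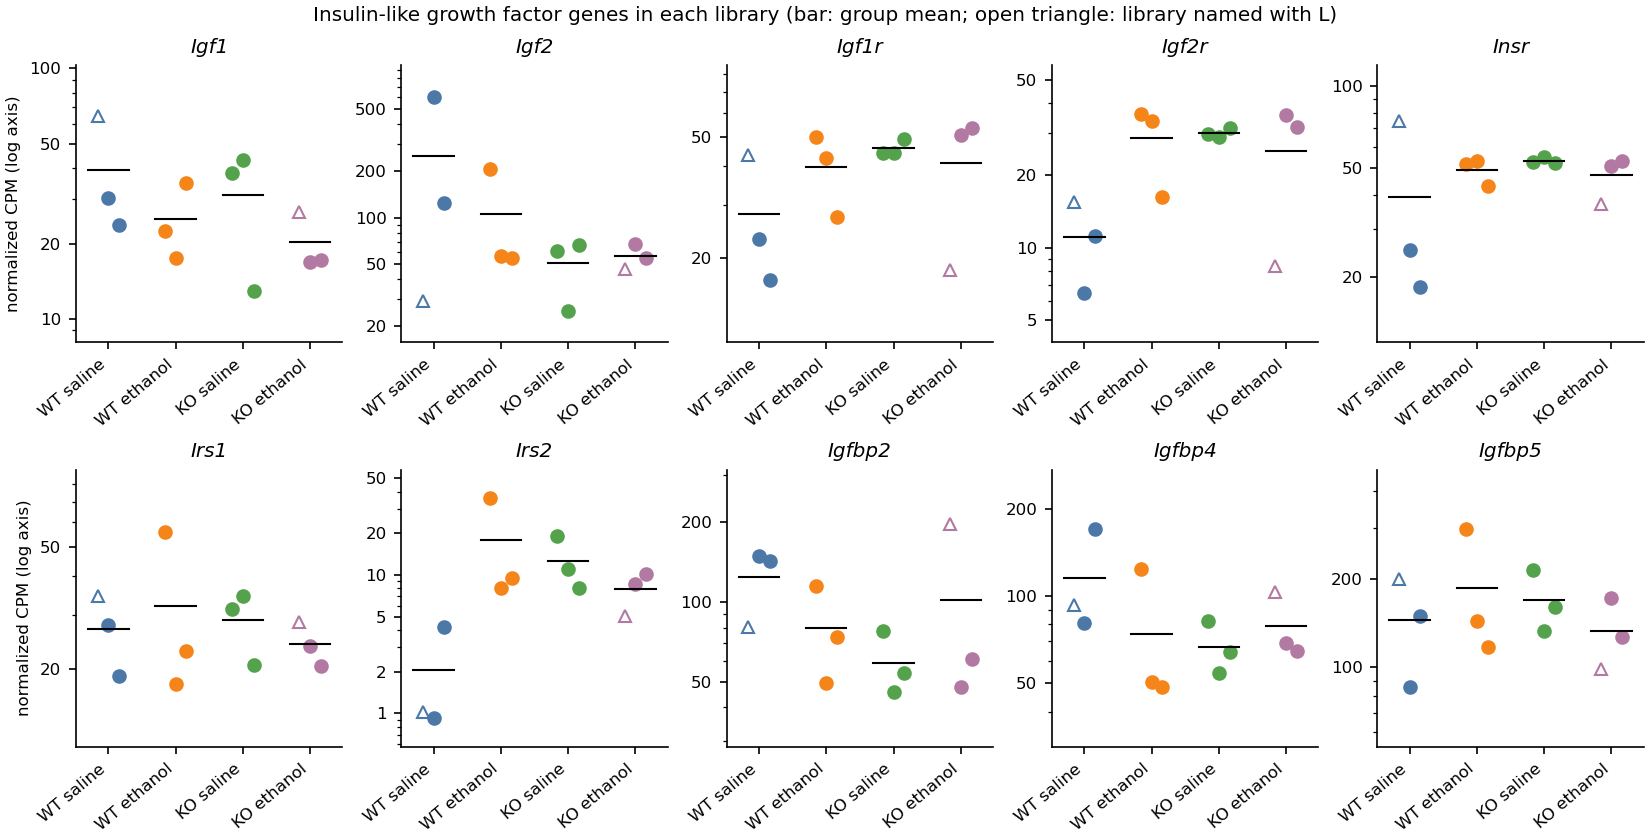
Normalized CPM of each member in each library on log axes, by group, with the group mean as a bar and the 2 libraries named with L as open triangles. In Irs2 and Igf2r the 3 WT saline points lie below all WT ethanol and KO saline points.

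WT ethanol 1 was the highest of its group in 8 of the 10 members, all but Igf1 and Insr. It also had a summed level of 5095 normalized CPM over 10 choroid plexus markers, of which Ttr, the transthyretin gene, gave 4919, while WT ethanol 2 and WT ethanol 3 had 69.9 and 29.8 in sum. In WT saline the sum lay between 9.26 and 129.3. In this comparison 4 of the 10 markers had higher values and 0 lower values at an unadjusted p under 0.05, beside 18.3% of all genes. Without WT ethanol 1, 4 of the 10 members were under an unadjusted p of 0.05, beside 9.50% of all genes, and 0 passed an adjusted p under 0.05. With each library left out in turn, log2 fold changes ran from -2.20 to 0.40 for Igf2 and from -1.24 to -0.23 for Igfbp4. The part of choroid plexus RNA in the members' values was not tested beyond the fits without WT ethanol 1.

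The second comparison asked the same of KO mice, and no member had a clear difference. Irs2 had 19.04, 11.01 and 8.04 normalized CPM in KO saline and 5.01, 8.53 and 10.1 in KO ethanol, and Igf2r had 29.9, 29.0 and 31.5 against 8.36, 35.8 and 31.9. Both groups overlapped, and the low values of KO ethanol 1 rested on 3 counts of Irs2 and 5 of Igf2r. The log2 fold changes were -0.59 (SE 0.66) and -0.17 (SE 0.48). In edgeR, 0 of 10 members passed at an adjusted p under 0.05 (0% of all genes) and 0 at an unadjusted p under 0.05 (3.15% of all genes), and DESeq2 gave 0 and 0 members. The smallest unadjusted p was 0.168, for Igfbp2, whose highest value of all was in KO ethanol 1 at 197.3 normalized CPM.

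The third comparison set KO against WT mice under saline. The WT saline libraries also served in the first comparison, so their values are not independent. Irs2 and Igf2r had higher values in KO saline and Igf2 lower values, each at an unadjusted p under 0.05, which gave 3 of 10 members beside 19.6% of all genes. In DESeq2 1 member (Irs2) passed an adjusted p under 0.05, beside 701 of 14669 genes. No member did in edgeR, where 0.0543% of all genes did. Irs2 had a log2 fold change of 2.44 (SE 0.70, unadjusted p = 0.0036, adjusted p = 0.176), and all 3 KO saline values lay above all WT saline values. Igf2r was tight in KO saline, with a mean of 30.1 ± 1.27 normalized CPM (SD, n = 3) that was above every WT saline library, and had a log2 fold change of 1.48 (SE 0.49, unadjusted p = 0.0094, adjusted p = 0.177).

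Igf2 had 60.7, 25.0 and 66.1 normalized CPM in KO saline, within the WT saline range of 28.8 to 602.7 except for KO saline 2. Its log2 fold change was -2.32 (SE 0.83, unadjusted p = 0.014, adjusted p = 0.183). Without WT saline 2 it was -0.64 (SE 0.64, unadjusted p = 0.339), so both the size and the call depended on that library. An unadjusted p under 0.05 was kept in 10 of 12 fits with 1 library left out. Without WT saline 1 the log2 fold change was -2.87 with an adjusted p of 0.024. Over all alternatives the adjusted p of Igf2 ran from 0.0123 to 0.695.

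Igfbp2 had 77.7, 45.6 and 53.9 normalized CPM in KO saline, all below the lowest WT saline library, with a log2 fold change of -1.07 (SE 0.51, unadjusted p = 0.0536). Igf1r had 44.2, 44.3 and 49.1, all above the highest WT saline library at 43.7, and a log2 fold change of 0.74 (SE 0.44). The log2 fold change was -0.79 for Igfbp4 (SE 0.43), 0.46 for Insr (SE 0.44), -0.31 for Igf1 (SE 0.49), 0.23 for Igfbp5 (SE 0.43) and 0.10 for Irs1 (SE 0.44). The median over the 10 members was 0.17, beside 0.04 over all genes tested. It was -0.43 with the length trend removed, beside -0.17 over all genes, and 0.35 without the 2 L libraries, beside 0.03.

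KO saline 1 was the highest of its group in Irs2, Igfbp2, Igfbp4 and Igfbp5, and its choroid plexus markers summed to 2283 normalized CPM, beside 31.97 in KO saline 2 and 416.4 in KO saline 3. In KO ethanol the sum ran from 3.34 to 2232. In KO saline against WT saline 0 of the 10 markers were called at an unadjusted p under 0.05, with a median log2 fold change of 1.22. Without KO saline 1 the log2 fold change was 2.02 for Irs2 (SE 0.75, unadjusted p = 0.0168), -1.33 for Igfbp2 (SE 0.60, unadjusted p = 0.0450), -0.97 for Igfbp4 (SE 0.51) and 0.017 for Igfbp5 (SE 0.49).

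Length again moved with the comparison, at a median of 4635 bases for genes with higher and 1267 bases for genes with lower values in KO saline. With the length trend removed, Igf2r was at 0.57 (unadjusted p = 0.158), Irs2 at 1.58 (unadjusted p = 0.021), Igf2 at -2.75 (unadjusted p = 0.0050) and Igfbp4 at -1.20 (unadjusted p = 0.021). Without the 2 L libraries 5 members passed at an adjusted p under 0.05, namely Igf1r at 1.13, Insr at 1.23, Igf2r at 1.69, Igf2 at -2.93 and Igfbp2 at -1.37 on the log2 scale, beside 3782 of 14967 genes.

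The fourth comparison set KO against WT mice under ethanol. In edgeR 0 of 10 members passed at an adjusted p under 0.05 (0% of all genes) and 0 at an unadjusted p under 0.05 (3.24% of all genes), with 0 and 0 in DESeq2. Irs2 had the smallest unadjusted p at 0.122, with a log2 fold change of -1.09 (SE 0.67), and Igf2r was at -0.09 (SE 0.48).

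The interaction asked whether the response to ethanol differed between genotypes. Irs2 had a difference of log2 fold changes, KO minus WT, of -3.54 (SE 0.97, unadjusted p = 0.0025, adjusted p = 0.25), and Igf2r of -1.57 (SE 0.68, unadjusted p = 0.037, adjusted p = 0.306). In edgeR 0 of 10 members passed at an adjusted p under 0.05 (0% of all genes) and 2 at an unadjusted p under 0.05 (15.2% of all genes). DESeq2 gave an adjusted p of 0.039 for Irs2, and 160 of 14669 genes were under 0.05 there. Over all alternatives the adjusted p of Irs2 ran from 0.039 to 0.645. The WT saline libraries enter this contrast too, and with the length trend removed the values were -2.26 for Irs2 (unadjusted p = 0.020) and -0.33 for Igf2r (unadjusted p = 0.551).

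**Figure D3:**
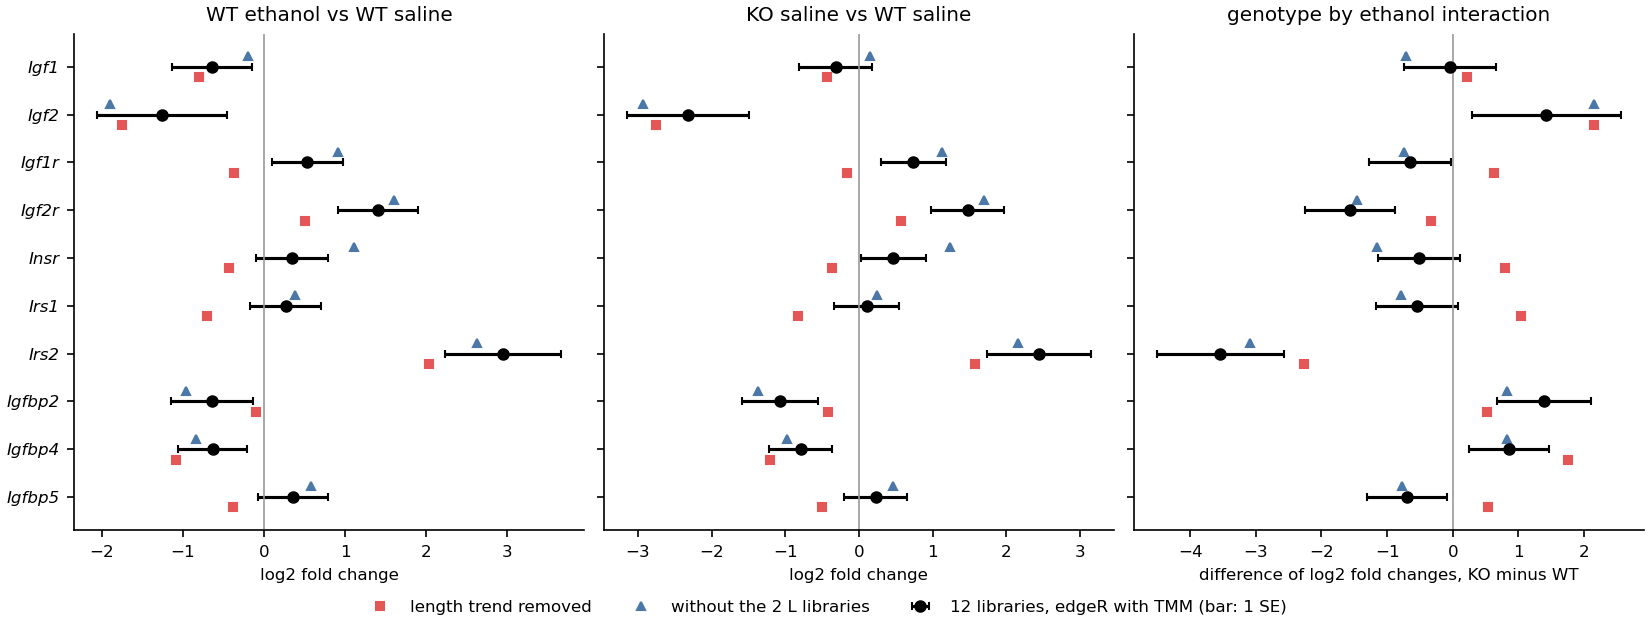
Log2 fold changes of the 10 members (circles, bars of 1 SE) in both comparisons with WT saline and the difference between genotypes, with the values after removing the length trend (squares) and without the 2 L libraries (triangles). Irs2 stays at or above 1.58 in both comparisons in all 3 fits, while Igf1r, Insr, Irs1 and Igfbp5 change sign in both comparisons when the length trend is removed.

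Ratios of members within a library were taken as log2 ratios of summed RPKM, which carry the authors' rank normalization, for 6 pairs in 4 comparisons, 24 in all, by two-sided exact permutation tests, for which 3 libraries against 3 cannot give a p below 0.1. The log2 ratio of Irs2 to Irs1 was -3.10, -3.64 and -0.94 in WT saline, 0.62, 0.04 and -0.08 in WT ethanol, and 0.50, -0.44 and -0.17 in KO saline. All 3 values of both groups lay above those of WT saline, with mean differences of 2.75 and 2.52 (exact p = 0.1 each, adjusted p = 0.48). The log2 ratio of Igfbp5 to Igfbp4 was -0.38, -1.06 and -1.46 in WT saline and -0.25, 0.01 and -0.23 in WT ethanol, a difference of 0.81 (exact p = 0.1, adjusted p = 0.48), and it was 0.78 higher in KO saline than in WT saline (exact p = 0.1, adjusted p = 0.48). Igfbp2 to Igfbp5 differed by -1.03 between KO saline and WT saline (exact p = 0.1, adjusted p = 0.48). Igf2r to Igf1r differed by 0.72 between WT ethanol and WT saline (exact p = 0.2, adjusted p = 0.6). None of the 24 passed an adjusted p under 0.05. Ratios of the counts, which one scaling factor per library leaves as they are, gave other sizes with the same exact p for these 6 differences. They were 3.03 and 2.80 for Irs2 to Irs1, 1.02 and 1.00 for Igfbp5 to Igfbp4, -1.33 for Igfbp2 to Igfbp5 and 0.80 for Igf2r to Igf1r. The ratio of Igf2 to Igf1 differed by 0.52 between WT ethanol and WT saline on RPKM (exact p = 0.9) and by 0.00128 on counts (exact p = 1).

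Igf2 followed the meningeal and fibroblast markers from library to library. The summed level of 14 such markers, among them the collagens Col1a2 and Col3a1, decorin (Dcn) and prostaglandin D synthase (Ptgds), ran from 26.7 normalized CPM in WT saline 1 to 3558 in WT saline 2, with 541.7 in WT saline 3. It was between 155.9 and 454.9 in WT ethanol, between 54.6 and 351.9 in KO saline and between 61.9 and 361.7 in KO ethanol. In each L library 6 of the 14 markers were at 0, and in the other 10 libraries 0 were. Over the 12 libraries, log2 Igf2 and the mean log2 level of the markers had a Pearson r of 0.871 (p = 9.00e-05, adjusted p = 0.00090) and a Spearman rho of 0.895 (p = 0.00021, adjusted p = 0.0021), by two-sided permutation tests with 100000 resamples and adjustment over the 10 members. The permutations moved libraries across all 4 groups, so these p-values do not separate a relation within groups from differences between groups. The marker list was also chosen with earlier results of these data known. Without WT saline 1 and WT saline 2, the libraries farthest from the median marker level, r was 0.728, and over the 10 P libraries it was 0.923. For the other 9 members r lay between -0.543 and 0.123, and the smallest adjusted p was 0.263. Over the 10 P libraries r lay between -0.641 for Irs2 and 0.663 for Igfbp2 among these 9, with -0.612 for Igf2r and -0.589 for Insr.

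The markers were also compared between groups, and in the fit to all 12 libraries none of the 14 passed an adjusted p under 0.05. In KO saline against WT saline 10 of the 14 had lower values and 0 higher values at an unadjusted p under 0.05, with a median log2 fold change of -2.73, and in WT ethanol against WT saline 3 had lower and 0 higher values, with a median of -1.24. The shares of all genes called at that level were 19.6% and 18.3%. WT saline 1 had a marker sum of 26.7 normalized CPM, below every KO saline library (54.6 to 351.9), while WT saline 2 had 3558. Without the 2 L libraries 12 and 4 of the 14 markers passed an adjusted p under 0.05, beside 3782 and 3220 of 14967 genes. The part of meningeal RNA in the Igf2 values was not tested. Among markers of other cells, 5 of 5 tested erythroid genes had lower values than WT saline in both WT ethanol and KO saline at an unadjusted p under 0.05, as did 3 and 4 of 10 microglial genes. Of 10 neuronal genes, Gad1 (0.92), Gad2 (1.64) and Camk2a (1.02) had higher and Tubb3 (-1.38) lower values in WT ethanol on the log2 scale, and Tubb3 (-1.38) had lower values in KO saline. Of 13 endothelial and mural genes, 1 had higher and 1 lower values in WT ethanol, and 1 higher and 3 lower in KO saline. Of 10 oligodendrocyte lineage genes 0 were called in WT ethanol and 1, Olig2, had higher values in KO saline, and of 9 astrocyte genes 0 were called in either. None of these other markers passed an adjusted p under 0.05 in the fit to all 12 libraries. Without the 2 L libraries 6 of 10 microglial and 5 of 6 tested erythroid genes passed it in each comparison. Of 13 endothelial and mural genes 2 passed in WT ethanol and 5 in KO saline, and of 10 neuronal genes 4 and 3. Of 9 astrocyte genes 1 passed in each, and of 10 oligodendrocyte lineage genes 0. These counts also stand beside 3220 and 3782 of 14967 genes. The part of these cells in the members' values was not tested either. The genes most like Igf2 over the 12 libraries, among 10249 with a mean of at least 100 counts, were Col1a2 and Col3a1, both with r = 0.943.

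**Figure D4:**
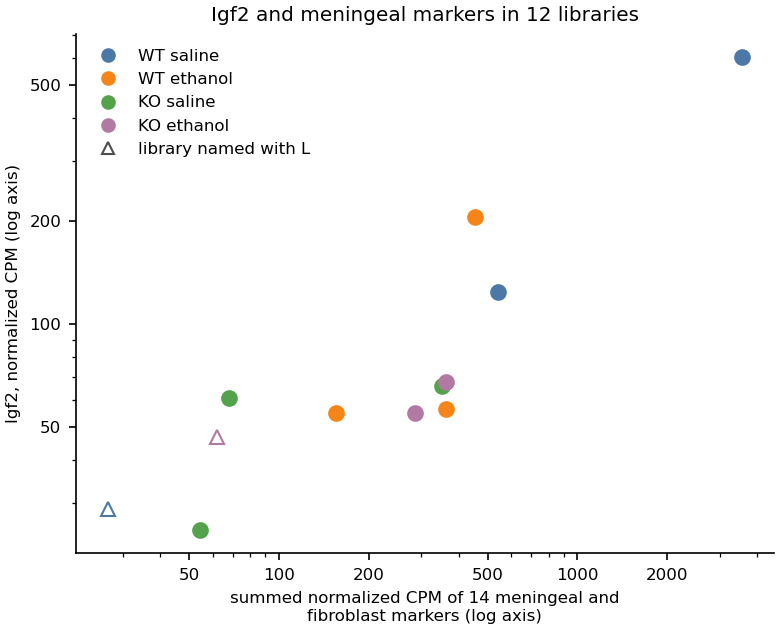
Normalized CPM of Igf2 against the summed normalized CPM of 14 meningeal and fibroblast markers in the 12 libraries, both on log axes, coloured by group. WT saline 2 is highest on both axes, at 3558 and 602.7 normalized CPM, and WT saline 1 has the lowest marker sum.

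The closest genes to the other members were chosen in the same way, with Pearson r on log2 normalized CPM over 12 libraries that share their depth and scaling. They were Spock2 (r = 0.971) and Nwd1 (r = 0.970) for Irs2, Ralgps1 (r = 0.963) and Ercc4 (r = 0.961) for Igf2r, Rgs17 (r = 0.954) and Slc35f1 (r = 0.948) for Igf1, and Ep400 (r = 0.981) and Ift88 (r = 0.979) for Igf1r. Insr was closest to Zfp142 (r = 0.968) and Brd3 (r = 0.967), Irs1 to Ankrd34b (r = 0.894) and Magt1 (r = 0.883). Igfbp2 was closest to Eci1 (r = 0.970) and Sys1 (r = 0.960), Igfbp4 to Etv4 (r = 0.939) and Rbm14 (r = 0.906), and Igfbp5 to Man2b2 (r = 0.906). Among the members themselves, Igf1r and Igf2r were the most alike (r = 0.884), followed by Insr and Igf1r (r = 0.840), Igfbp2 and Igfbp4 (r = 0.744) and Irs2 and Igf2r (r = 0.740).

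Igf1, Igf2 and Igfbp2 have several RefSeq transcripts in the files. Igf2, on the minus strand of chromosome 7 (mm10, 142650768 to 142666817), has 5 transcripts that share their 3′ end and begin at 4 start sites. NM_001315488, from the most upstream start site, held a median of 41.7% of the Igf2 counts, and the pair that begins at 142657497, NM_001315489 and NM_001122737, held 30.6% and 19.3%. The share of NM_001315489 varied most, from 15.6% in KO ethanol 2 to 81.5% in WT saline 1. In WT saline it was 81.5%, 53.04% and 33.1%, and in WT ethanol 20.9%, 17.2% and 65.6%, so the groups overlapped. These shares are the authors' division of reads that the transcripts have in common.

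Igf1, on chromosome 10 (mm10, 87858265 to 87937048), also has 5 transcripts. NM_010512 held a median of 40.5% of its counts and NM_001111275 31.5%. In WT saline 1 and KO ethanol 1, the 2 L libraries, the shares of the 5 transcripts were the same to 3 digits, with 37.7% for NM_001111276, 26.2% for NM_001111274, 20.7% for NM_001111275, 14.5% for NM_010512 and 0.885% for NM_001314010. In the other 10 libraries NM_001111276 held between 0.215% and 11.2%. Of the Igfbp2 transcripts on chromosome 1 (mm10, 72824480 to 72852472), NM_001310659 held a median of 67.8% and NM_008342 32.2%. Tested as single transcripts, NM_001310659 of Igfbp2 had a log2 fold change of -1.43 in KO saline against WT saline (SE 0.45, unadjusted p = 0.0067, adjusted p = 0.155), and NM_001315489 of Igf2 one of -3.15 (SE 0.85, unadjusted p = 0.0024, adjusted p = 0.136).

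**Figure D5:**
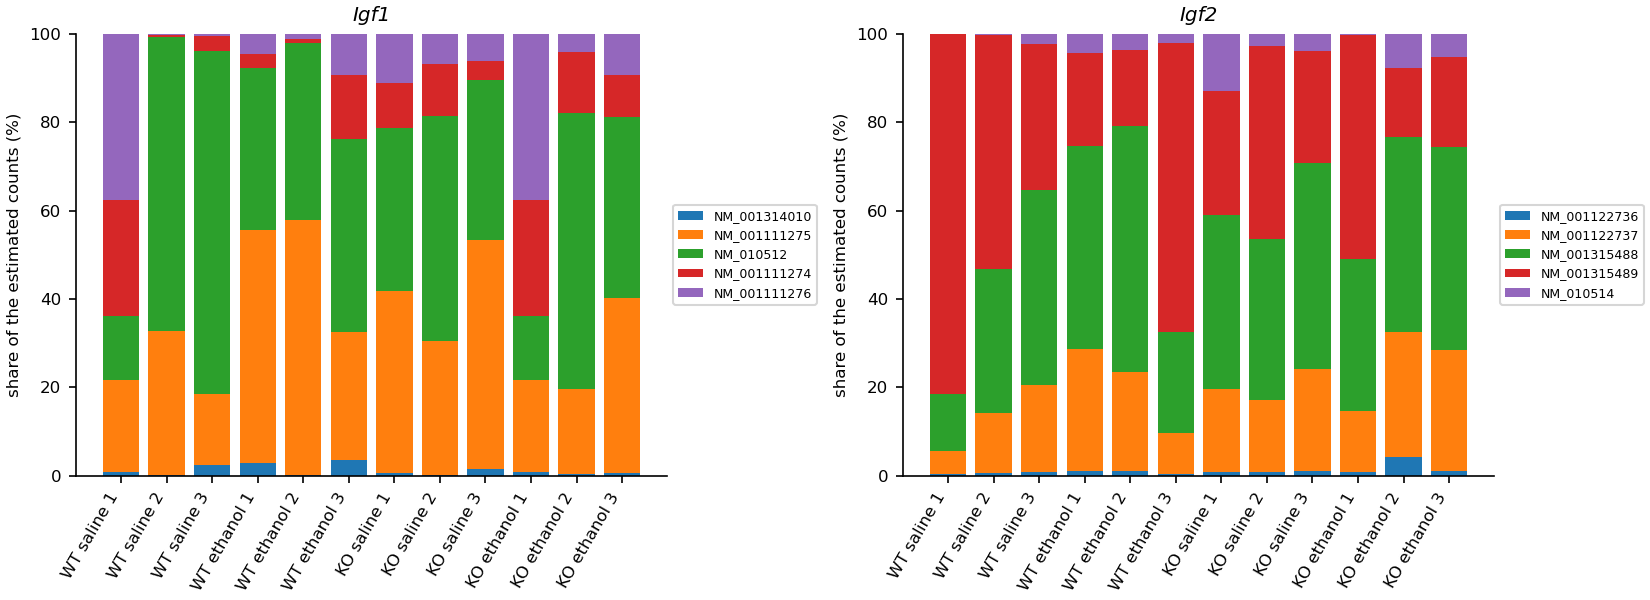
Share of the estimated counts of Igf1 and Igf2 held by each RefSeq transcript in each library, stacked to 100%. The Igf1 bars of WT saline 1 and KO ethanol 1 are alike, and NM_001315489 of Igf2 ranges from 15.6% to 81.5%.

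Other genes of the pathway were held to the same unadjusted threshold, at which 1472 genes had higher and 1232 lower values after ethanol in WT mice (18.3% of all) and 1347 higher and 1543 lower values in KO saline than in WT saline (19.6% of all). None of the listed genes passed an adjusted p under 0.05 in the fit to all 12 libraries. Without the 2 L libraries, 8 relay genes, 3 feedback genes, 1 FoxO gene and 2 other IGF family genes did in WT ethanol, beside 3220 of 14967 genes, and 10, 2, 1 and 3 did in KO saline, beside 3782. Of 38 genes of the relay from receptors to AKT, mTOR and Ras, 5 had higher and 3 lower values in WT ethanol than in WT saline (median log2 fold change 0.07), and 5 higher and 4 lower in KO saline (median 0.26), which is near the share of all genes. With the length trend removed both medians turned, to -0.41 and -0.38, beside -0.17 over all genes in each comparison. Pik3r3, a regulatory subunit of phosphoinositide 3-kinase, had a log2 fold change of 1.41 after ethanol in WT mice (SE 0.34, unadjusted p = 0.0010, adjusted p = 0.130), Shc3, a neuronal adaptor, 2.06 (SE 0.52, unadjusted p = 0.0015), and Rps6, a ribosomal protein that S6 kinase phosphorylates, -1.82 (SE 0.68, unadjusted p = 0.018).

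Of 16 feedback regulators and adaptors at the receptors, 3 had higher and 1 lower values in WT ethanol (median 0.04), and 3 higher and 0 lower in KO saline (median -0.10), a share near that of all genes. These medians were -0.33 and -0.30 once the length trend was removed. Grb10, an adaptor that restrains insulin and IGF receptors, had a log2 fold change of 1.74 after ethanol in WT mice (SE 0.48, unadjusted p = 0.0025), Gigyf2, a partner of GRB10, 1.55 (SE 0.44, unadjusted p = 0.0032), and Ptprf, a receptor tyrosine phosphatase, 1.04 (SE 0.41, unadjusted p = 0.022).

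Of 15 tested FoxO factors and FoxO-induced genes, which AKT holds in check, 2 had higher and 0 lower values in WT ethanol (median 0.38), and 1 higher and 0 lower in KO saline (median -0.09). Removing the length trend gave medians of -0.07 and -0.39. Foxo3 had a log2 fold change of 2.25 in WT ethanol (SE 0.71, unadjusted p = 0.0069) and 1.70 in KO saline (SE 0.71, unadjusted p = 0.030), and Pdk4, a kinase that inhibits pyruvate dehydrogenase, 1.62 in WT ethanol (SE 0.63, unadjusted p = 0.021).

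Of 20 other IGF family genes 12 were tested. In WT ethanol 0 had higher and 1 lower values (median 0.42), and in KO saline 1 had higher and 2 lower values (median 0.12), beside the 19.6% of all genes. After removal of the length trend the medians were 0.10 and -0.34. Igfbp6, a binding protein that prefers IGF2, had a log2 fold change of -1.92 in WT ethanol (SE 0.81, unadjusted p = 0.032) and -2.98 in KO saline (SE 0.84, unadjusted p = 0.0031). H19, the imprinted neighbour of Igf2, was at -2.10 in KO saline (SE 0.85, unadjusted p = 0.027), and Stc2, an inhibitor of the protease that cleaves IGFBP4, at 1.62 (SE 0.72, unadjusted p = 0.040).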

How the data were processed

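Stranded total RNA-Seq reads were filtered by quality score by the authors, aligned to mouse genome version mm10 with Bowtie2 and assigned to RefSeq transcripts in Partek Flow, whose version and counting settings are not given in the sources used here. The authors deposited estimated counts per transcript and library, not scaled for library size, and RPKM values of the same transcripts. Of the nonzero counts 44.9% were whole numbers, since reads shared by transcripts were divided.

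Counts were summed per gene symbol, rounded and tested by edgeR 4.0.16 (R 4.3.3) under its quasi-likelihood model, after filterByExpr and TMM scaling, with the 4 group means fitted to all 12 libraries at once. P-values are two-sided and were adjusted by Benjamini-Hochberg over the 14739 genes of each contrast. Normalized CPM are counts scaled to a common total (CPM) with TMM factors applied. Genes were called at an adjusted and at an unadjusted p under 0.05, and the code was tested on simulated data. The study used this unadjusted level for its nominal counts. For single genes it used a false discovery rate cutoff looser than 0.05, except for ethanol in KO mice, where it used none. All 10 members were named, with the 2 genes most like each and up to 3 list genes of smallest p per comparison, of which 1 gene is not reported here. The members and lists were chosen with earlier results of these data known. Sequences are from RefSeq (GRCm38.p6). Alternatives used DESeq2 1.42.0, limma 3.58.1 on log2 RPKM after adding 1 or 0.1, a plain linear model on RPKM, other scaling factors and filters, splines with 5 degrees of freedom on gene length, the first letter of the library name, and libraries left out. The lists were refitted without the L libraries, with the length trend removed and with library size alone. Correlations, exact tests and figures used Python 3.11.15 with scipy 1.17.1 and matplotlib 3.10.9. Depth was lowest in the 2 L libraries, where low counts limit precision.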

Additional observations from a re-analysis of the deposited data

How the results depend on the processing

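No paired analysis was possible because the replicate numbers only name the libraries. Of 638 log2 fold changes recomputed for the members named with values, 590 kept their sign and their side of an adjusted p of 0.05, 33 took the opposite sign and 15 came under that threshold. In WT ethanol against WT saline the count of members at an adjusted p under 0.05, 0 in the report, was 1 with DESeq2, 3 without the 2 L libraries and 0 to 1 with each library left out. In KO saline against WT saline it was 1, 5 and 0 to 3, and in the interaction 1 with DESeq2. Beside these, DESeq2 called 488, 701 and 160 of 14669 genes. Without the 2 L libraries 3220 and 3782 of 14967 genes passed in WT ethanol and KO saline. With 1 library left out, the most genes passed without WT saline 1, at 1151 and 2177 of 14996. The count at an unadjusted p under 0.05 in WT ethanol, 2 in the report, was 6 without the L libraries, 0 with at least 10 counts in every library (a filter that Irs2 and Igf2r did not pass), 1 in both limma fits, 0 in the linear model and 2 to 5 with each library left out. The shares of all genes, 18.3% in the report, were 37.3%, 19.99%, 11.1% and 11.7%, 10.3%, and 9.50% to 31.7%. In KO saline the count of members was 7, 1 with that filter, 1 in the linear model and 2 to 6. The shares there, 19.6% in the report, were 39.2%, 23.4%, 10.98%, and 10.95% to 33.6%. The share of all genes thus rose along with the count of members when the L libraries were left out. In the interaction the count was 4, 0 with that filter, 1 in both limma fits and 0 in the linear model. It was 1 with the name letter as covariate and 1 to 5 with each library left out. The shares were 21.4%, 19.6%, 11.2% and 11.5%, 10.2%, 10.3%, and 9.80% to 23.6%. In KO ethanol against KO saline the count was 1 with transcripts tested singly and 0 to 1 with each library left out. The shares were 2.99% of transcripts and 0.319% to 7.60% of genes.

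Signs turned for values whose adjusted p was far above 0.05, some of them well away from 0, such as Igf2 in WT ethanol (-1.25, and 0.40 without WT saline 2) and Igf1r in KO saline and WT ethanol (0.74 and 0.54). With the length trend removed, the log2 fold changes in WT ethanol and KO saline were -0.36 and -0.17 for Igf1r, -0.38 and -0.50 for Igfbp5, -0.43 and -0.37 for Insr and -0.70 and -0.83 for Irs1, and Igf2r was at 0.18 in KO ethanol against KO saline and 0.24 against WT ethanol. Without the L libraries these Igf2r values were 0.15 and 0.24, and Igf1 in KO saline was at 0.15. Igf1 there was 0.018 with library size alone and 0.13 with the name letter as covariate. Irs1 was at -0.16 and -0.22 in limma with 0.1 added, -0.10 and -0.17 with 1 added and -0.033 and -0.22 in the linear model. With each library left out, WT ethanol against WT saline ran from -2.20 to 0.40 for Igf2, -0.15 to 0.61 for Igfbp5 and -0.40 to 0.49 for Irs1, and KO saline against WT saline from -0.61 to 0.18 for Igf1, -0.050 to 0.49 for Igfbp5 and -0.10 to 0.28 for Irs1. Igf2r ran from -0.44 to 0.17 in KO ethanol against KO saline and from -0.38 to 0.24 against WT ethanol. The cause of these turns was not tested. Library size alone moved the median of all genes to 0.49 in both comparisons with WT saline.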
